A study of Mus musculus with 12 samples.

Results

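The class I histone deacetylases of the mouse are Hdac1, Hdac2, Hdac3 and Hdac8, and their RNA was measured in endothelial cells of the adult brain cortex after Hdac2 itself had been targeted in endothelium. The members were taken by gene symbol: 4 of the 21638 genes in the deposited table, each on 1 row. The question was whether RNA of the other class I members rises when Hdac2 is targeted. The 12 libraries formed 4 groups, each of 3: WT (wild type), Hdac2 ECKO (Hdac2lox/lox:Cdh5CreERT2), libraries labelled Ezh2 ECKO (Ezh2lox/lox:Cdh5CreERT2), and beta-catenin GOF (Ctnnb1lox/lox:Cdh5CreERT2, an activated form of beta-catenin). Cdh5CreERT2 is a Cre recombinase driven by the promoter of Cdh5, an endothelial cadherin, and is switched on by tamoxifen. Per the labels' protocols the mutants received 5 doses of tamoxifen at 75 mg/kg and brains were taken after 2 months. Whether WT mice carried Cre or received tamoxifen is not given in the sources used here, nor are strain, exact age, the exons between the lox sites or the number of animals behind a library. Cells were sorted as positive for CD31 and negative for the CD41 and CD45 surface proteins, a gate that keeps endothelium and leaves out platelets and white blood cells.

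Class I deacetylases are mostly nuclear, zinc-dependent enzymes that remove acetyl groups from lysines of histones and other proteins. Hdac1 and Hdac2 are close paralogs that pair with each other and form the catalytic core of the Sin3, NuRD, CoREST and MiDAC complexes, Hdac3 is the enzyme of the NCoR/SMRT complex, and Hdac8 works outside these complexes and deacetylates the cohesin subunit Smc3. In many cell types loss of Hdac1 or Hdac2 leaves the other in place to carry on part of its work, and a rise in the protein of the remaining one has often been described.

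Hdac1 and Hdac2 are alike in sequence, so whether their reads can be told apart bears on every value. Over the coding sequence they were identical at 1094 of 1441 aligned bases (75.9%), the closest pair of the 6, and the other 5 pairs were 57.8% to 66.9% identical. The longest coding run shared by Hdac1 and Hdac2 was only 17 bases, and the longest in any pair was 23 bases, between Hdac1 and Hdac3. The stretch around a run of 17 bases shared by Hdac1 and Hdac2 is shown 5′ to 3′ from the GENCODE M21 transcripts (GRCm38). In the Hdac2 line (coding bases 214 to 290) capitals mark the 17 bases of that run. Another shared run of 17 bases lies nearer the 3′ end of the stretch and is left in lower case. In the Hdac1 line (coding bases 211 to 287) capitals mark the 15 bases that differ from Hdac2. The Gm10093 line (bases 211 to 287 of the pseudogene transcript) has no capitals because none of its 77 bases differs from Hdac1.
Hdac2: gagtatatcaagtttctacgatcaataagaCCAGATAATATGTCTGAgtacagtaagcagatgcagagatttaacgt
Hdac1: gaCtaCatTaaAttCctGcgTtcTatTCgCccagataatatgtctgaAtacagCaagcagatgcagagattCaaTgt
Gm10093: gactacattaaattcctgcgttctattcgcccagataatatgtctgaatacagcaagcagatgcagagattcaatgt

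None of the 75-base windows of the reference transcripts of Hdac2, Hdac3 or Hdac8 occurred in a transcript of another gene. Of the 1964 such windows of the Hdac1 transcript, 1032 (52.5%) did, and 1005 of them lay in Gm10093. Gm10093 (ENSMUSG00000061062.5) is a processed pseudogene of Hdac1 on chromosome 17, 78491582 to 78493025 on the plus strand, identical to Hdac1 at 1435 of 1444 bases (99.4%), and it has 0 rows in the table. Reads from the matching part of Hdac1 can therefore map equally well to a second place. How such reads were counted is not given in the sources used here, so the level of Hdac1 relative to the other 3 genes is uncertain, while its comparison between groups uses the same rule in all libraries.

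Each library held 24781070 to 36109975 counts, and each of the 4 members passed the filter of a mean count of at least 10, as did 12577 genes in all. The sum of 8 endothelial markers overlapped between the groups, from 5532 to 6394 CPM in the WT libraries (CPM: counts per 1000000 of the TMM-scaled total) and from 5994 to 6714 in those of Hdac2 ECKO. Single markers moved both ways in Hdac2 ECKO. Cldn5 stood at 435, 1111 and 545 CPM, below every WT library (1172, 1893 and 1407). Flt1, Kdr and Slc2a1 lay above every WT library, and Pecam1, Cdh5, Tek and Slco1c1 overlapped with WT. Among all tested genes 18.2% lay wholly below WT and 19.5% wholly above. Ezh2 averaged 6.75 ± 3.52 CPM in the WT libraries. Its mean was 8.92 ± 3.36 CPM (SD, n = 3 each) where Ezh2 ECKO is the label, not lower, so those libraries are named by their label throughout. The labels do not say that replicates came from separate animals, so p-values measure only the spread between these libraries. In bulk RNA of sorted cells, fewer cells of a type and less RNA per cell cannot be told apart.

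Per kilobase of the gene length in the table, Hdac2 and Hdac1 were the most abundant members in WT cortical endothelium and Hdac8 the least. Hdac2 stood at 28.9 ± 6.74 CPM per kilobase, Hdac1 at 25.2 ± 8.51, Hdac3 at 8.24 ± 3.43 and Hdac8 at 1.82 ± 0.677 (SD, n = 3 each). The first 2 neighbours in this order did not differ beyond their spread. Among the 12577 tested genes, 85.1% stood lower than Hdac2, 83.7% lower than Hdac1, 68.5% lower than Hdac3 and 39.1% lower than Hdac8. Counted per kilobase of transcript windows found in no other gene, the upper pair changed places, with Hdac1 at 93.3 ± 31.4 and Hdac2 at 66.9 ± 15.6 CPM per kilobase. Hdac3 and Hdac8 kept the third and the lowest place on both scales.

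Hdac2 (ENSMUSG00000019777.16, chromosome 10, 36974544 to 37001889, plus strand), the targeted gene, was only slightly lower in Hdac2 ECKO, and the groups overlapped. It stood at 163, 122 and 104 CPM in WT replicates 1 to 3 and at 82.2, 94.99 and 112 CPM in Hdac2 ECKO replicates 1 to 3. The highest Hdac2 ECKO library lay above the lowest WT library. The mean was 96.5 ± 15.2 CPM against 129 ± 30.1 CPM in WT (SD, n = 3 each), which is 74.7% of WT with a 95% interval from 52.6% to 106%. On the log2 scale the difference was -0.42 (SE 0.24), which did not pass edgeR's quasi-likelihood test (adjusted p = 0.22). The level was almost equal in beta-catenin GOF, where Hdac2 was not targeted: 88.6, 92.3 and 108 CPM, with a difference between these 2 mutants of 0.01 (95% interval -0.50 to 0.51, edgeR adjusted p = 0.99). The table gives 1 count per gene and does not resolve exons, so RNA that lacks the deleted exons is counted together with intact RNA, and the recombined share was not analysed here.

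Hdac1 (ENSMUSG00000028800.15, chromosome 4, 129516104 to 129542713, minus strand), the paralog that could stand in for Hdac2, was lower and not higher in Hdac2 ECKO. It stood at 115, 89.2 and 56.6 CPM in WT replicates 1 to 3 and at 30.8, 38.5 and 27.5 CPM in Hdac2 ECKO replicates 1 to 3. All 3 Hdac2 ECKO libraries lay below the lowest WT library. The mean fell from 87.0 ± 29.3 to 32.3 ± 5.64 CPM (SD, n = 3 each), to 37.1% of WT with a 95% interval from 24.2% to 56.9%, and the log2 fold change of -1.43 (SE 0.29) passed edgeR's test (adjusted p = 0.032). The call rests on few libraries, like nearly all calls of this comparison. It held in 2 of 6 fits that left out 1 library. It was lost without WT replicate 1 (adjusted p = 0.12), WT replicate 2 (0.091), Hdac2 ECKO replicate 1 (0.16) or Hdac2 ECKO replicate 3 (0.13). Those fits called 0, 0, 3 and 0 genes in all, so a call lost there does not set Hdac1 apart. Over all 6 fits that left out 1 library its log2 fold change stayed between -1.66 and -1.18.

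Hdac8 (ENSMUSG00000067567.12, chromosome X, 102284639 to 102505359, minus strand), the deacetylase of cohesin, had the largest log2 fold change of the 4 members in Hdac2 ECKO. It stood at 12.5, 7.79 and 6.20 CPM in WT, from 360, 246 and 174 counts, and at 1.67, 3.07 and 3.61 CPM in Hdac2 ECKO, from 44, 94 and 104 counts. Each Hdac2 ECKO library lay below each WT library. The mean fell from 8.83 ± 3.27 to 2.78 ± 1.00 CPM (SD, n = 3 each), a log2 fold change of -1.66 (SE 0.42) that passed edgeR's test (adjusted p = 0.036). This call held in 2 of 6 fits that left out 1 library and was lost without WT replicate 1 (adjusted p = 0.15), WT replicate 2 (0.098), Hdac2 ECKO replicate 1 (0.16) or Hdac2 ECKO replicate 3 (0.13). As stated for Hdac1, almost no gene was called in those fits. The Hdac8 call was also lost with scaling by library size alone, at -1.42 (adjusted p = 0.053).

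Hdac3 (ENSMUSG00000024454.16, chromosome 18, 37935844 to 37955016, minus strand), the catalytic subunit of the NCoR/SMRT complex, was lower in Hdac2 ECKO by its mean but did not pass the test. It stood at 39.4, 43.4 and 17.5 CPM in WT replicates 1 to 3 and at 17.0, 18.3 and 14.2 CPM in Hdac2 ECKO replicates 1 to 3. WT replicate 3 lay within the range of the Hdac2 ECKO libraries, and the other 2 WT libraries lay above it. The log2 fold change was -1.02 (SE 0.34, 95% interval -1.74 to -0.30, edgeR adjusted p = 0.063). Without WT replicate 3 it was -1.33 and passed (adjusted p = 0.022).

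**Figure D1:**
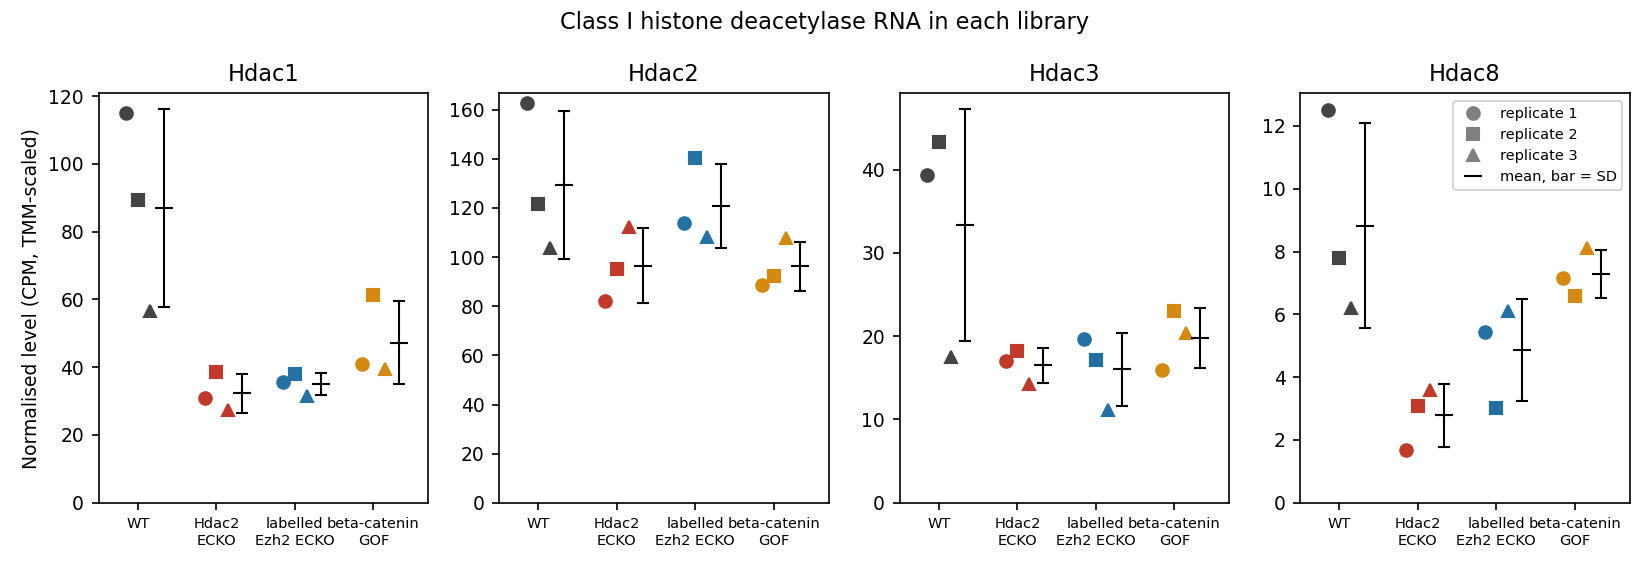
Level of each class I deacetylase in the 12 libraries, in CPM on a linear axis from 0, with 1 panel per gene and a scale of its own for each. Points are libraries and bars are group means with the SD (n = 3): Hdac1 and Hdac8 in Hdac2 ECKO lie below all WT libraries, while Hdac2 and Hdac3 overlap with WT.

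Thus 2 of the 4 members, Hdac1 and Hdac8, were called lower in Hdac2 ECKO and none was called higher. Among all tested genes 5.38% were called lower and 3.82% higher in this comparison. The same 2 members had values that did not overlap with WT, where 18.2% of tested genes lay wholly below WT. Over all tested genes the median was 0.10, and 46% lay below 0. Each of the 4 members kept a negative log2 fold change in all 10 other settings and all 6 fits that left out 1 library. For the 3 members that were not targeted, the 95% intervals of the log2 fold change lay wholly below 0 in the reported fit: -2.05 to -0.81 for Hdac1, -1.74 to -0.30 for Hdac3 and -2.57 to -0.76 for Hdac8. Such intervals are not adjusted for the number of genes: 33.1% of all tested genes had an unadjusted edgeR p under 0.05, in either direction. Hdac3 did not pass after adjustment. A rise of Hdac1, Hdac3 or Hdac8 RNA was not seen in these libraries. Protein levels were not analysed here.

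Because the others were lower by more than Hdac2 was, the targeted gene made up more of the class I RNA in Hdac2 ECKO than in WT. By level per kilobase, Hdac2 was 44.3%, 41.6% and 51.3% of the class I sum in WT replicates 1 to 3 and 57.7%, 56.6% and 67.3% in Hdac2 ECKO replicates 1 to 3. The groups did not overlap. Hdac1 made up 38.9% ± 2.29 of the sum in WT and 26.4% ± 4.45 in Hdac2 ECKO (SD, n = 3 each). The ratio of Hdac2 counts to Hdac1 counts was 1.54 ± 0.259 in WT and 3.08 ± 0.886 in Hdac2 ECKO. The summed level itself was 64.2 ± 18.4 CPM per kilobase in WT and 35.6 ± 3.23 in Hdac2 ECKO. With windows found in no other gene as the length, the Hdac2 share was smaller in every library, 34.0% to 42.4% in WT and 48.5% to 60.1% in Hdac2 ECKO, and the groups again did not overlap. These shares are descriptions of the members' values above and carry no test.

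**Figure D2:**
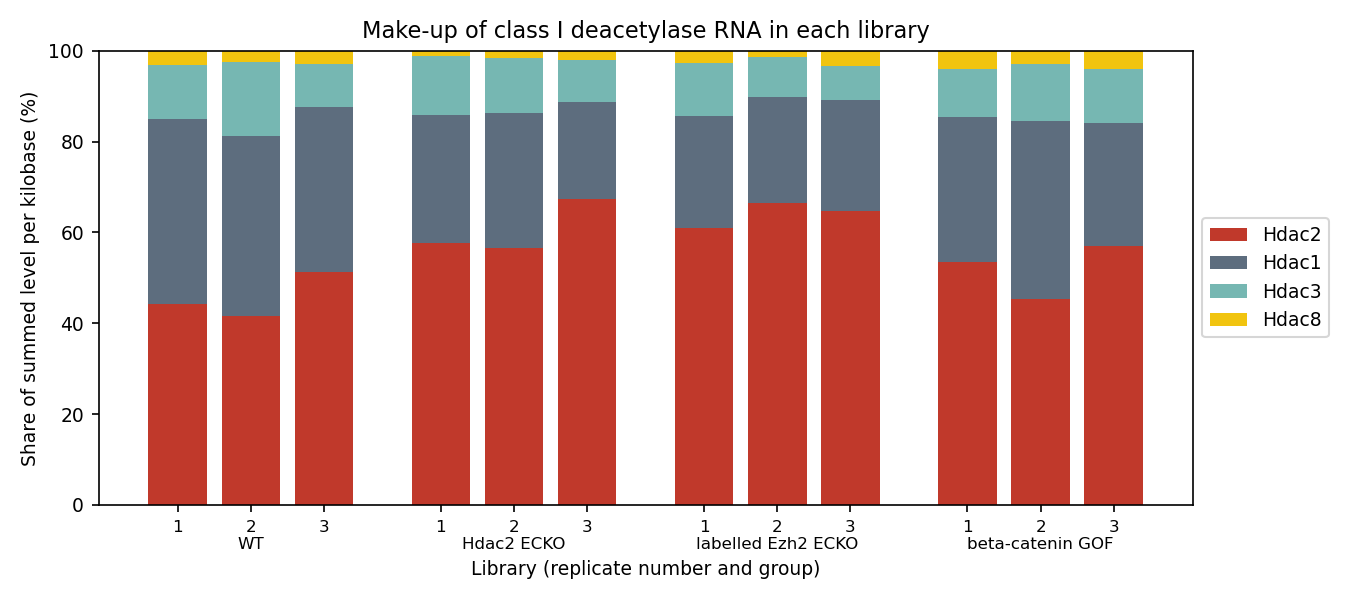
Share of each member in the summed class I level per kilobase, in percent, with 1 stacked bar per library. The Hdac2 part is 41.6% to 51.3% in WT and 56.6% to 67.3% in Hdac2 ECKO, and it is also larger than in WT in the libraries labelled Ezh2 ECKO, at 61.0% to 66.4%.

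A like pattern stood in the libraries labelled Ezh2 ECKO, in which Hdac2 was not targeted. Hdac1 was at 35.6, 38.0 and 31.5 CPM, all below WT, and Hdac2 at 114, 140 and 108 CPM, within the WT range. Hdac1 fell by 1.31 on the log2 scale against WT (SE 0.29, edgeR adjusted p = 0.048), the only member of the 4 called, where 0.684% of tested genes were called lower. That call lies close to the threshold: it was lost with median-ratio scaling (adjusted p = 0.051), library size alone (0.056) and a fit of the 2 groups only (0.11), and without WT replicate 1 (0.20), WT replicate 2 (0.16) or replicates 1 (0.16) or 3 (0.14) of the mutant. The fits without those libraries called 2, 2, 4 and 7 genes in all, so a call lost there does not set Hdac1 apart. Hdac2 differed from WT by -0.10 (95% interval -0.60 to 0.41, adjusted p = 0.83). Hdac3 stood at 19.7, 17.2 and 11.1 CPM and overlapped with WT. Its difference was -1.06 (SE 0.34, edgeR adjusted p = 0.091), and it passed without WT replicate 3 (-1.37, adjusted p = 0.022). Hdac8 stood at 5.45, 3.03 and 6.11 CPM, all below the lowest WT library at 6.20 CPM, and the difference of -0.86 (SE 0.41) missed the threshold of edgeR's test (adjusted p = 0.21). Hdac1 and Hdac8 thus lay wholly below WT, as did 10.9% of tested genes. The Hdac2 share of the class I sum was 64.0% ± 2.78 (SD, n = 3).

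In beta-catenin GOF, Hdac1, Hdac3 and Hdac8 differed less from WT than in either other mutant, while Hdac2 did not. None of the members was called. Hdac1 was at 40.9, 61.3 and 39.6 CPM, with replicate 2 inside the WT range. Its log2 fold change against WT was -0.88 (SE 0.29, edgeR adjusted p = 0.66). Hdac3 was at 16.0, 23.1 and 20.3 CPM and Hdac8 at 7.16, 6.60 and 8.10 CPM, both overlapping with WT, and edgeR gave -0.75 (SE 0.34, adjusted p = 0.80) for Hdac3 and -0.28 (SE 0.41, adjusted p = 0.95) for Hdac8. Hdac2, whose values in this group are given above, differed from WT by -0.43 (SE 0.24, edgeR adjusted p = 0.88), close to the -0.42 in Hdac2 ECKO. In this comparison edgeR called 0% of tested genes, an unadjusted p under 0.05 was reached by 763, and DESeq2 called 38 genes. Values of 12.7% of tested genes did not overlap between beta-catenin GOF and WT, and those of all 4 members did. All 4 members had negative log2 fold changes against WT in each of the 3 mutants, where 47.4% of tested genes were below 0 in the comparison labelled Ezh2 ECKO and 48.9% in that of beta-catenin GOF. Without WT replicate 1, Hdac2 in the former (0.10) and Hdac8 in the latter (0.059) turned above 0. The Hdac2 share was 53.4%, 45.4% and 57.0% in replicates 1 to 3, of which 1 lay inside the WT range.

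**Figure D3:**
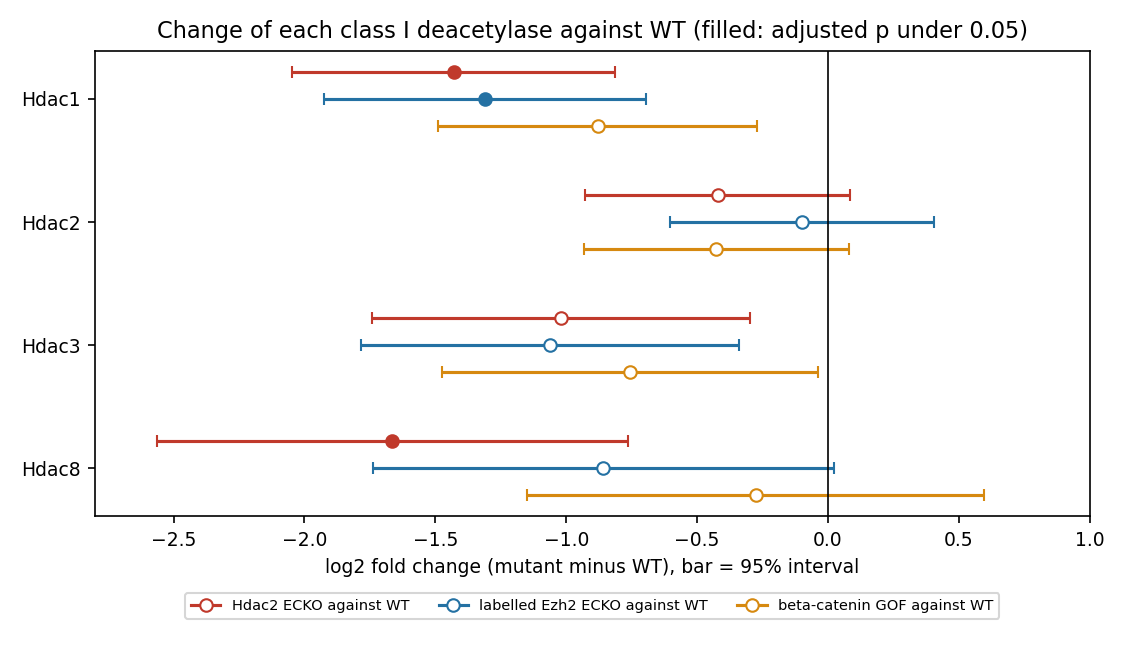
Log2 fold change of each member in the 3 mutants against WT, with its 95% interval. Filled points passed edgeR's test: Hdac1 and Hdac8 in Hdac2 ECKO and Hdac1 in the libraries labelled Ezh2 ECKO. All 12 points lie below 0, and the 3 comparisons share the same WT libraries.

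All 3 comparisons use the same 3 WT libraries, in which the class I sum was 82.0, 65.4 and 45.2 CPM per kilobase in replicates 1 to 3, so a high or low WT library moves all of them together. In the 2 direct comparisons made between mutants, Hdac2 ECKO against each of the others, no member was called. Against the libraries labelled Ezh2 ECKO, Hdac2 ECKO differed by -0.12 in Hdac1 (95% interval -0.73 to 0.49), by -0.32 in Hdac2 (-0.83 to 0.18), by 0.04 in Hdac3 (-0.67 to 0.76) and by -0.80 in Hdac8 (-1.69 to 0.08), with edgeR adjusted p from 0.63 to 0.98. All 4 members overlapped there, while 13.2% of tested genes did not, and 0.0239% of tested genes were called. The signs for Hdac1 and Hdac3 turned under other settings, Hdac1 to 0.13 with library size alone and Hdac3 to -0.10 with the correction for length and GC content. Against beta-catenin GOF, Hdac8 was lower in Hdac2 ECKO by a log2 fold change of -1.39 (95% interval -2.28 to -0.49, edgeR adjusted p = 0.17). Hdac1 differed there by -0.55 (-1.16 to 0.06, edgeR adjusted p = 0.28) and Hdac3 by -0.26 (-0.98 to 0.45, edgeR adjusted p = 0.67). Neither Hdac1 nor Hdac8 overlapped between these 2 mutants, where 32% of tested genes did not overlap and 0.0716% were called.

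Several properties of the libraries moved with the groups. In Hdac2 ECKO against WT, log2 fold changes rose with gene length across genes (Spearman's rho 0.44, a description over genes, which are not replicates). The 2515 tested genes of Hdac1's length class, 2420 to 3718 bases, had a median log2 fold change of -0.33, and 8.63% of them were lower than Hdac1. In the class of 3719 to 5253 bases, which holds the other 3 members, the median was 0.09, and 27.0% of genes were lower than Hdac2, 8.91% lower than Hdac3 and 1.55% lower than Hdac8. After a correction for length and GC content Hdac1 and Hdac8 passed the test in Hdac2 ECKO. When the length of the longest coding transcript was used instead, an alternative added after seeing the data, Hdac1 passed and Hdac8 did not, at -1.26 (adjusted p = 0.081).

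Markers of other cells also differed between the groups, and their part in the members' values was not tested. The 5 platelet and red cell markers summed to 19618 to 33751 CPM in WT, 217 to 11768 in Hdac2 ECKO, 1467 to 3648 in the group labelled Ezh2 ECKO and 290 to 20876 for beta-catenin GOF, with none at 0 throughout a group, and most of it was haemoglobin RNA. The 9 pericyte and smooth muscle markers summed to 66.9 to 123 CPM in WT, 128 to 314 in Hdac2 ECKO, 56.6 to 72.8 in the group labelled Ezh2 ECKO and 121 to 379 for beta-catenin GOF, with none at 0 throughout a group. The 5 astrocyte markers summed to 24.0 to 34.5 CPM in WT and were above that range in every mutant library. The sums were 49.3 to 75.7 in Hdac2 ECKO, 43.9 to 77.6 in the group labelled Ezh2 ECKO and 35.8 to 54.0 for beta-catenin GOF. Aqp4 was at 0 throughout the last. Most of each sum was Gja1, at 31.7, 19.4 and 26.5 CPM in WT and 64.9, 40.4 and 44.5 in Hdac2 ECKO. Gfap went the other way, from 1.01, 0.41 and 1.14 CPM in WT to 0, 0.52 and 0 in Hdac2 ECKO. Slc1a3 was higher in Hdac2 ECKO than in WT but not in beta-catenin GOF. In the order WT, Hdac2 ECKO, labelled Ezh2 ECKO and beta-catenin GOF, the 8 microglia and leukocyte markers summed to 4.34 to 7.53, 2.22 to 4.41, 4.02 to 9.13 and 2.39 to 3.799 CPM. Of these, Cd53 was at 0 in all 3 mutants and above 0 in each WT library, and Cx3cr1, Aif1 and Itgam were also at 0 throughout beta-catenin GOF. The 5 neuron markers summed to 0.697 to 4.91, 3.03 to 8.41, 1.02 to 3.34 and 0.739 to 2.73 CPM. The 4 oligodendrocyte markers summed to 2.60 to 65.3, 8.60 to 22.4, 4.64 to 29.5 and 2.11 to 10.2 CPM, with Olig2 at 0 throughout all 3 mutants and Mog at 0 throughout the group labelled Ezh2 ECKO and beta-catenin GOF.

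Over the 12 libraries, Hdac1, Hdac3 and Hdac8 varied more than Hdac2. The root mean square deviation of log2 CPM from a gene's own mean was 0.27 for Hdac2, 0.61 for Hdac1, 0.54 for Hdac3 and 0.75 for Hdac8. By the smallest root mean square difference of centred log2 CPM among 12577 genes, Hdac1 was most like Dctn2 (0.15), Tmem109 (0.16) and Rab11b (0.21). Rab11b, a small GTPase of recycling endosomes, averaged 225 CPM in WT against 79.1 in Hdac2 ECKO. Hdac3 was 41st in nearness to Hdac1 (0.28), and Hdac1 was 26th in nearness to Hdac3, whereas Hdac2 was 1731st in nearness to Hdac1 (0.53). Nearest to Hdac2 were Rcbtb2 (0.14), Tbpl1 (0.14) and Rnft1 (0.16). Nearest to Hdac3 were Prkaca (0.21), Sh3gl1 (0.21) and Calcoco1 (0.23), and nearest to Hdac8, at a larger distance, Zfp78 (0.34) and Vps33a (0.34).

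The deacetylases outside class I, namely the class II and IV enzymes and the sirtuins, gave 1 call in Hdac2 ECKO among 14 tested genes, and it was lower, where 9.2% of all tested genes were called. Sirt2, an NAD-dependent deacetylase of tubulin, was at 72.9, 51.5 and 24.8 CPM in WT against 12.7, 26.2 and 12.8 in Hdac2 ECKO, with an overlap through WT replicate 3. It fell by 1.53 on the log2 scale (SE 0.40, edgeR adjusted p = 0.039). The median over the list was 0.37 against 0.10 for all tested genes, with 9 genes above 0 and 5 below. Its most abundant members were Sirt1, at 31.8 ± 4.46 CPM in WT and 47.4 ± 15.9 in Hdac2 ECKO (0.57, edgeR adjusted p = 0.19), and Hdac7, a class IIa enzyme with a known role in endothelial cells, at 26.7 ± 7.55 and 47.3 ± 5.73 CPM (0.82, edgeR adjusted p = 0.083; SD, n = 3 each). The Hdac7 groups did not overlap, without passing the test, and 19.5% of tested genes lay wholly above WT in this comparison.

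Of the genes for proteins that class I enzymes work with, 33 of 34 were tested. In Hdac2 ECKO 2 were called higher and 4 lower. The median was -0.01, with 16 genes above 0 and 17 below. Among all tested genes 3.82% were called higher and 5.38% lower. The 2 called higher were NuRD subunits: the remodelling ATPase Chd3, from 20.5 ± 5.57 to 48.4 ± 12.2 CPM (1.24, edgeR adjusted p = 0.036), and Gatad2b, from 22.9 ± 5.93 to 49.7 ± 12.0 CPM (1.11, edgeR adjusted p = 0.039). The NuRD subunit Mbd3, which bridges the enzyme and remodelling parts, fell from 26.8 ± 6.64 to 9.75 ± 3.02 CPM (-1.46, edgeR adjusted p = 0.042). The NuRD subunits called thus moved in both directions. Rbbp4, the histone chaperone shared by NuRD and Sin3, fell from 115 ± 27.5 to 58.2 ± 6.81 CPM (-0.98, edgeR adjusted p = 0.041), and its gene lies near Hdac1 on chromosome 4 (129307100 to 129335370). Dnttip1, the scaffold of MiDAC, fell from 38.7 ± 8.05 to 12.5 ± 5.99 CPM (-1.63, edgeR adjusted p = 0.034). Gps2, a subunit of NCoR/SMRT, fell from 78.5 ± 26.3 to 26.5 ± 15.8 CPM (-1.57, edgeR adjusted p = 0.039; SD, n = 3 each). The most abundant partners were Sap18 (526 ± 79.4 and 435 ± 54.0 CPM, -0.28, edgeR adjusted p = 0.49) and Rbbp7 (327 ± 84.0 and 205 ± 16.5 CPM, -0.67, edgeR adjusted p = 0.076), neither of which passed.

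Each of the 6 partner calls and the Sirt2 call held in 2 of 6 fits that left out 1 library. The remaining fits called at most 3 genes in all, so this count does not set these genes apart. With the correction for length and GC content, Rbbp4 (adjusted p = 0.017), Dnttip1 (0.028) and Sirt2 (0.028) passed, but Sirt2 was lost when the longest coding transcript gave the length (-1.11, adjusted p = 0.060). Chd3 (0.058), Gps2 (0.059), Mbd3 (0.10) and Gatad2b (0.19) did not. In the libraries labelled Ezh2 ECKO, 1 of the 33 partners was called: Mbd3 fell to 6.64 ± 3.87 CPM (-2.02, edgeR adjusted p = 0.045), where 0.684% of all tested genes were called lower. The other 4 of these 5 lists gave 0 calls there, and all 5 gave 0 calls in beta-catenin GOF.

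**Figure D4:**
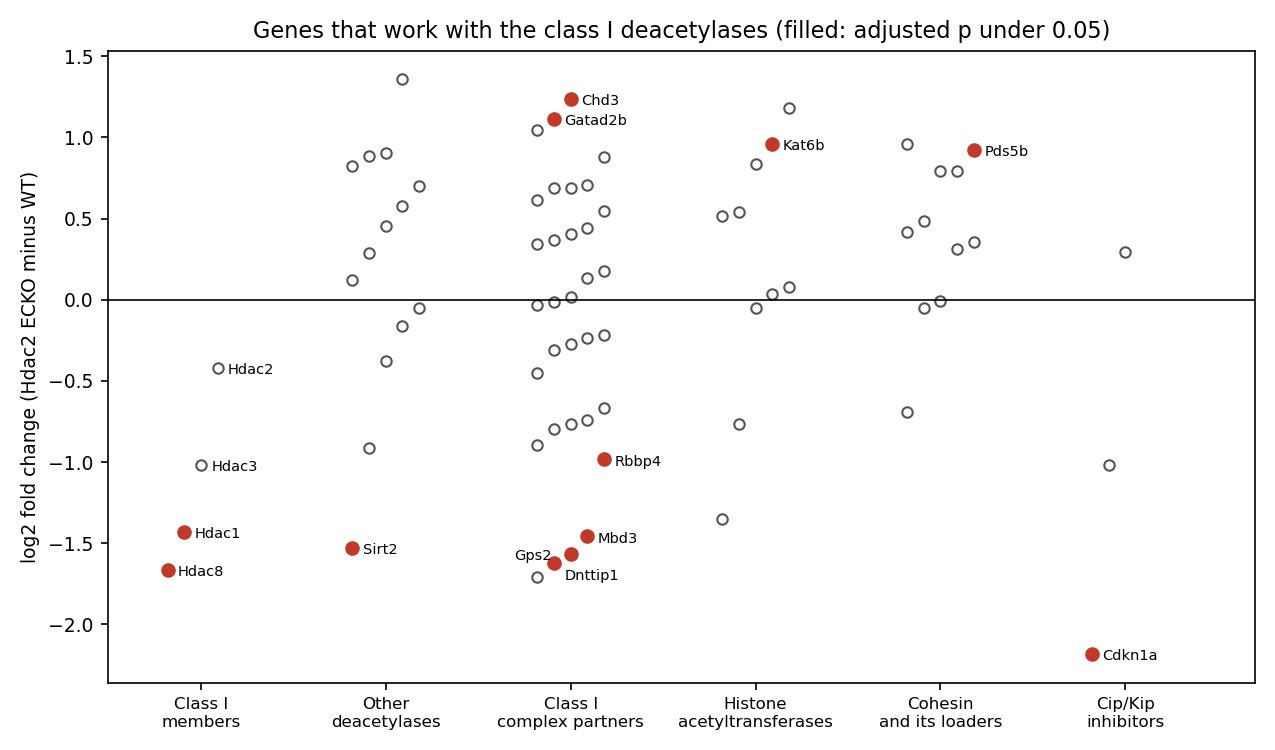
Log2 fold change in Hdac2 ECKO against WT of each tested gene, 1 point per gene, for the class I members and 5 gene lists. Filled, named points passed edgeR's test. Class I members all lie below 0, complex partners spread on both sides with 2 called higher and 4 lower, and Cdkn1a is the lowest point, at -2.18.

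Of 10 histone acetyltransferases, the enzymes that oppose the deacetylases, 1 was called higher in Hdac2 ECKO: Kat6b, from 16.1 ± 2.86 to 31.3 ± 1.59 CPM (0.96, edgeR adjusted p = 0.039, SD, n = 3 each). The list median was 0.30, with 7 genes above 0 and 3 below. Among all tested genes 3.82% were called higher. The most abundant, Crebbp and Hat1, differed by 0.52 (edgeR adjusted p = 0.25) and 0.04 (edgeR adjusted p = 0.94). With the correction for length and GC content the Kat6b log2 fold change was 0.15 (adjusted p = 0.74).

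Cohesin and its loaders, which include the substrate of Hdac8, gave 1 call among 11 tested genes, a share near the 9.2% of all tested genes. Pds5b, a regulator of cohesin release, rose from 34.2 ± 9.99 to 64.7 ± 14.9 CPM (0.92, edgeR adjusted p = 0.046; SD, n = 3 each), and was not called with the correction for length and GC content (0.26, adjusted p = 0.43). The median was 0.41, with 8 genes above 0 and 3 below. The subunits Stag2 and Rad21, the most abundant of the list, differed by 0.48 (edgeR adjusted p = 0.23) and 0.35 (edgeR adjusted p = 0.41). Kat6b and Pds5b also held in 2 of 6 fits that left out 1 library, with the limit given for the partners.

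The Cip/Kip inhibitors of cyclin-dependent kinases include Cdkn1a (p21), a well-known gene repressed by Hdac1 and Hdac2 in cultured cells. It stood at 207, 168 and 111 CPM in WT replicates 1 to 3 and at 32.5, 34.6 and 40.1 CPM in Hdac2 ECKO replicates 1 to 3. Every Hdac2 ECKO library lay below every WT library. Cdkn1a fell by 2.18 on the log2 scale (SE 0.32, edgeR adjusted p = 0.032). It passed with the correction for length and GC content (-1.95, adjusted p = 0.017). It also passed in 2 of 6 fits that left out 1 library, where the remaining fits called at most 3 genes in all. Its level was 80.8, 177 and 83.7 CPM under the label Ezh2 ECKO and 131, 122 and 126 CPM under beta-catenin GOF. The difference between Hdac2 ECKO and beta-catenin GOF passed edgeR's test (-1.82, adjusted p = 0.048). That call held in 1 of 6 fits that left out 1 library, which called 0 to 538 genes in all. It was lost with the correction for length and GC content (-1.61, adjusted p = 0.057). Cdkn1c (p57) averaged 135 ± 20.2 CPM in WT against 66.6 ± 8.53 in Hdac2 ECKO (SD, n = 3 each), which did not pass edgeR's test (-1.02, adjusted p = 0.099). Of the 3 genes in the list 1 was called lower and 2 lay below 0, and the median was -1.02. Among all tested genes 5.38% were called lower.

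The only tested gene with its body within 1 Mb of Hdac2 on chromosome 10 was Marcks (37133375 to 37138920), an actin-binding substrate of protein kinase C. It averaged 79.3 ± 24.2 CPM in WT against 91.5 ± 28.9 in Hdac2 ECKO (SD, n = 3 each), a log2 difference of 0.21 (edgeR adjusted p = 0.64).

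**Figure D5:**
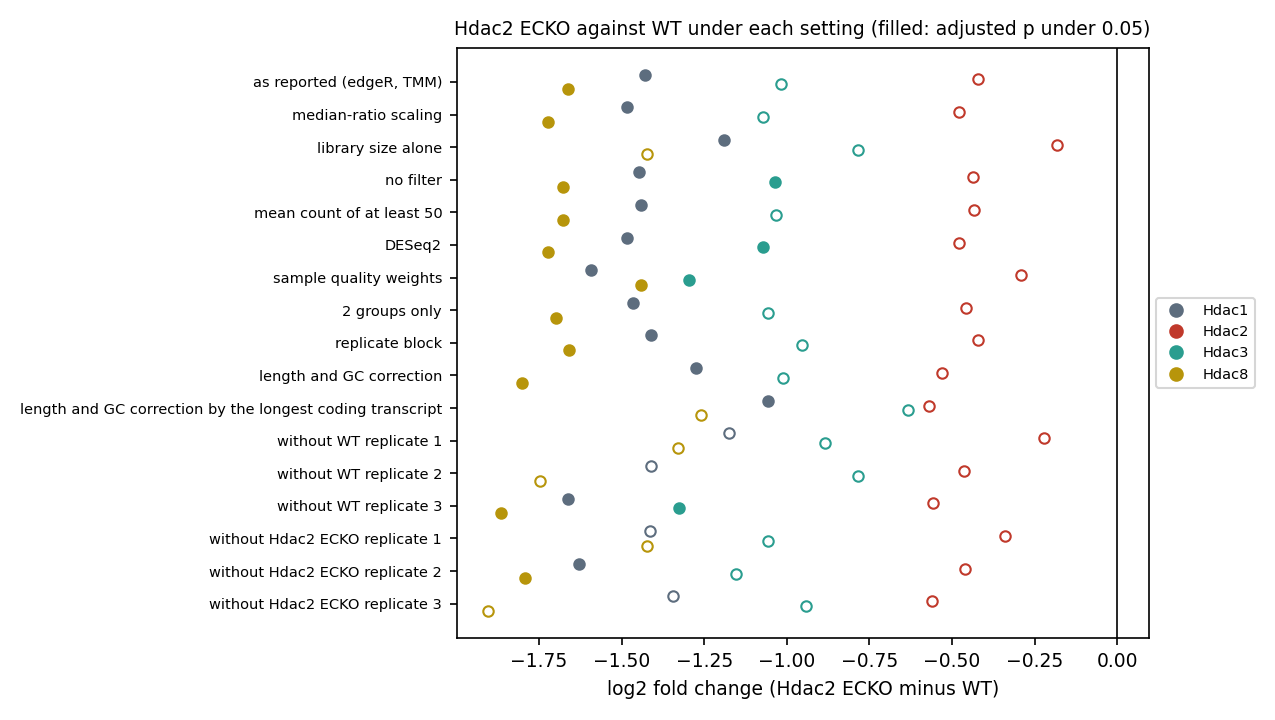
Log2 fold change of each member in Hdac2 ECKO against WT under the reported fit, the 10 other settings and the 6 fits that left out 1 library each. Filled points passed the test of that fit: the values stay below 0 throughout, Hdac1 passes in all 10 other settings and in 2 of the 6 fits with a library left out, and Hdac2 in none.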

How the data were processed

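RNA of 12 libraries was analysed from 1 table of whole-number counts per gene that the authors deposited. Its title calls the values normalized, but totals differ between libraries and even numbers made up 79.5% to 84.0% of low values (10 to 50) but 59.4% to 67.1% of higher ones (300 to 1000), so they were treated as raw counts, probably of both mates of a pair. The submitters' processing notes name FastQC, cutadapt, STAR, featureCounts, DESeq2 and the build mm10; roles, versions, strand use and the treatment of reads with several matches are not given in the sources used here. Gene positions matched GENCODE M21 (GRCm38) for 99.1% of genes, and coordinates are counted from 1. Gene length is the table's.

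Groups were compared by the quasi-likelihood F test of edgeR (version 4.0.16 in R 4.3.3) with TMM scaling, 1 term per group over all 12 libraries, on the 12577 genes whose mean count reached 10. P-values were adjusted by Benjamini-Hochberg over all tested genes of each of 5 contrasts, with a threshold of 0.05. Standard errors were derived from the F statistic. Alternatives were median-ratio scaling, library size alone, no filter, a filter at 50, DESeq2 (1.42.0), sample quality weights (limma 3.58.1), a fit of the 2 groups compared, a replicate block, a correction for length and GC content, and leaving out each library. A depth of 3 counts corresponds to 0.0792 to 0.118 CPM per library, and reads carry no molecular identifiers, so this floor covers counting error only. Counts of replicates differed by far more than sampling noise (the lowest chi-square per degree of freedom was 66.3).

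On simulated counts for Hdac2 ECKO against WT (12577 genes, 200 changed), edgeR recovered 4.48% of 2-fold, 70.1% of 4-fold and 74.2% of 8-fold changes, and 5.71% of its calls were unchanged genes. These counts held no trend with gene length, and in the real comparison 1157 genes were called. The rates therefore need not hold for the real data. The genes named are the 4 members, for each the 3 genes nearest in pattern, list genes past the threshold against WT (at most 6 per list) and the 2 most abundant of each list; Gm10093, Ezh2 and the cell type markers were named as checks. One gene that this rule selects is not reported here. Members and lists were chosen with earlier results of these data known.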

Additional observations from a re-analysis of the deposited data

How the results depend on the processing

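Of the 4 members, Hdac1 in Hdac2 ECKO against WT passed in all 10 other settings and Hdac2 in none. Hdac3 in Hdac2 ECKO passed with no filter (-1.04), DESeq2 (-1.07) and sample quality weights (-1.30), and in the libraries labelled Ezh2 ECKO likewise (-1.07, -1.08 and -1.28). Hdac8 in Hdac2 ECKO was lost with library size alone (-1.42) and with the longest coding transcript (-1.26). Hdac1 in the libraries labelled Ezh2 ECKO was lost with median-ratio scaling (-1.33), library size alone (-1.32), 2 groups only (-1.32) and the longest coding transcript (-0.92). Between Hdac2 ECKO and the group labelled Ezh2 ECKO, Hdac1 turned sign with library size alone (0.13) and Hdac3 with quality weights (-0.012) and the length and GC correction (-0.10). Between Hdac2 ECKO and beta-catenin GOF, quality weights made Hdac1 (-0.74) and Hdac8 (-1.20) pass, and Hdac2, at 0.01, became -0.030 with median-ratio scaling, DESeq2 and 2 groups only, -0.010 with no filter, -0.19 with the length and GC correction and -0.26 with the longest coding transcript. The cause was not tested. Library size alone moved the median of all genes in Hdac2 ECKO against WT from 0.10 to 0.34.

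Leaving out 1 library gave, in Hdac2 ECKO against WT, -1.66 to -1.18 for Hdac1, -0.56 to -0.22 for Hdac2, -1.33 to -0.79 for Hdac3 and -1.90 to -1.33 for Hdac8. In the libraries labelled Ezh2 ECKO the ranges were -1.54 to -1.06, -0.23 to 0.10 (above 0 without WT replicate 1), -1.37 to -0.83 and -1.07 to -0.52. In beta-catenin GOF they were -1.11 to -0.62, -0.56 to -0.23, -1.06 to -0.52 and -0.48 to 0.059 (above 0 without WT replicate 1). Between Hdac2 ECKO and the group labelled Ezh2 ECKO, Hdac3 ranged from -0.17 to 0.22, and between Hdac2 ECKO and beta-catenin GOF Hdac2 ranged from -0.12 to 0.10.

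Counts of called genes moved far more than the members' values. In Hdac2 ECKO against WT 1157 genes were called, 719 to 5374 in the other settings and 0 to 2216 with a library left out, with 0 without WT replicate 1, WT replicate 2 or Hdac2 ECKO replicate 3. In the libraries labelled Ezh2 ECKO 129 genes were called, 17 to 3743 and 2 to 2329. In beta-catenin GOF the count was 0, against 0 to 157 and 0 to 4. Between Hdac2 ECKO and the group labelled Ezh2 ECKO it was 3, against 2 to 199 and 1 to 3, and between Hdac2 ECKO and beta-catenin GOF 9, against 1 to 3339 and 0 to 538.

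Deviations of same-numbered libraries correlated only weakly, from -0.14 to 0.27. These values cannot show whether a replicate number marks a shared batch, and the labels do not say. With the replicate block Hdac1 in Hdac2 ECKO against WT was -1.41 and no member's call changed, while called genes went from 1157 to 1832 there and from 129 to 536 in the libraries labelled Ezh2 ECKO.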
